A study of Homo sapiens with 8 samples.

Results

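The sites described here are the places on RNA where LARP6 was enriched both in control and in TGFβ1-treated human hepatic stellate cells. They were chosen from the authors' lists of enriched regions, of which there was 1 per condition. A region of the TGFβ1 list was taken when it shared at least 1 nt, on the same strand, with a region of the control list. By that rule 615 of the 1008 regions of the TGFβ1 list were members, which is 61.0% (95% Wilson interval 58.0 to 64.0%). Members lying within 20 nt of each other on a strand were joined, which gave 279 sites, against 555 sites in the whole TGFβ1 list. A total of 275 sites had their midpoint in an annotated gene, and they fell in 197 genes. Because the measured lists themselves chose the members, the overlap and the enrichment values are given as a description, with no test.

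All cells were wild-type hepatic stellate cells, whose labels name no particular line or donor, grown in serum-containing medium. Control cells are labelled both as untreated and as DMSO, and treated cells received TGFβ1 at 5 ng/ml for a time not given in the labels. The 8 samples were 2 anti-LARP6 immunoprecipitations and 2 size-matched inputs in each condition. The labels do not state whether replicates were separate cultures, and their spread may be technical.

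LARP6, of the La-related family of RNA-binding proteins, is best known for binding a stem-loop near the 5′ end of the mRNAs of the fibrillar collagens COL1A1, COL1A2 and COL3A1. Hepatic stellate cells are the main collagen-producing cells of the injured liver, and TGFβ1 is the cytokine most often used to activate them. In eCLIP, ultraviolet light links the protein to the RNA it touches, the RNA is trimmed with RNase I, and the immunoprecipitated fragments are compared with an input cut from the same size range of a membrane. The value of a cluster of fragments is its log2 fold over that input. Since it is relative to the input, more of a transcript in the cell does not by itself raise it, but rare transcripts give less certain values.

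Reference sequence was available only around annotated gene starts and for microRNAs, so it is shown for sites that begin there. The table held 10 sites in coding genes that begin near an annotated start, with no entry for COL1A1 or COL1A2. The 6 highest of the 10 are given to show the RNA that follows the 5′ edge of the site. Lower case marks the bases just before the site and capitals the first bases inside it, read 5′ to 3′ on the gene's strand from the RefSeq sequence of GRCh38.p14.
PCSK1N: ccggcactgcGCACTTGCCAGCCAGTCCGC
LARP6: cccctcgtcgCAGTCGCTGCCGACCGGCTG
CCDC85B: ctgcctcggcCACTGCCTGCCGCGTGCGGA
YWHAE: ttgctgcccggACGCGGAGCGAGAGGCTGA
GFPT1: gcggcggttgCTGGCGGAGCCCGGGAGGCG
SORT1: ggcggcaggtGTCGGCGTCGGCGGCATTCG
These windows lie at chrX:48835562-48835591 (minus strand), chr15:70854139-70854168 (minus), chr11:65890663-65890692 (plus), chr17:1400173-1400202 (minus), chr2:69387230-69387259 (minus) and chr1:109397899-109397928 (minus). All are rich in G and C. The lower-case bases of LARP6, CCDC85B and SORT1 lie before the annotated gene start, as does the whole GFPT1 window. The GC contents that follow are of the gene itself, which the GFPT1 window does not reach. Over the first 50 nt of the gene, the GC content was 76% in PCSK1N, 78% in LARP6, 80% in CCDC85B, 66% in YWHAE, 68% in GFPT1 and 78% in SORT1. Gene starts are GC-rich in general: 15842 protein-coding genes in the sequence table had a median of 64%. Among the 402 of them with a cluster in the first 50 nt in every library, the 10 with a shared site there had a median of 77% (68 to 80%) and the other 392 had a median of 70% (38 to 88%), so the former lie inside the range of the latter. YWHAE (66%) and TAP1 (82%) also had a shared site reaching into the first 50 nt and are in neither group, since not every library had a cluster within that stretch. No test was made of that difference.

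A pair of sites lay on microRNA genes, whose hairpin transcripts are cut into short mature strands. The mature strands they covered are shown with the seed, bases 2 to 8, in capitals.
hsa-miR-27a-3p: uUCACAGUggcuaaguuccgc
hsa-miR-4709-5p: aCAACAGUgacuugcucuccaa
hsa-miR-4709-3p: uUGAAGAGgaggugcucuguagc
The MIR27A site (chr19:13836445-13836467, minus strand) covered all 21 nt of miR-27a-3p and nearly nothing else. The MIR4709 site (chr14:74480139-74480197, minus strand) covered 22 of the 22 nt of the 5p strand and 19 of the 23 nt of the 3p strand, with the loop between them. The 3 seeds differ from each other. The MIR27A site read 4.19 and 4.09 in the control libraries and 5.35 and 5.32 after TGFβ1. The MIR4709 site read 5.41 and 6.0 in the control libraries and 6.19 and 7.44 after TGFβ1. Both sites were thus higher in both treated libraries than in either control, though at MIR4709 the treated pair itself spread further than the gap to the controls. The assignment preferred a small RNA gene over a protein-coding gene at the same position. Whether the fragments came from the microRNA hairpin or from a longer host transcript was therefore not tested.

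Each library's value at a site was the highest log2 fold among its clusters that overlapped the site. A site was called enriched in a library when both the log2 fold and the −log10 p of a cluster there reached 3. Of the clusters tested in each library, 1.21% (control replicate 1), 2.09% (control replicate 2), 2.69% (TGFβ1 replicate 1) and 3.64% (TGFβ1 replicate 2) met that rule. Of the 279 sites, 242, 269, 261 and 271 did in the same order, which the choice of members made likely. All 4 libraries were enriched at 221 sites, 3 of them at 43 sites and 2 at 15 sites. Depth could not be given, since the deposited values hold no read counts. Stellate marker RNA was present: 14 of 20 stellate marker genes had clusters in all 4 libraries, against 0 of 16 hepatocyte, 0 of 9 endothelial, 1 of 11 macrophage and lymphocyte and 3 of 7 cholangiocyte markers.

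The highest sites combined the collagen mRNAs with a small group of mRNAs that do not code for matrix. The site with the highest mean was at the 5′ end of COL3A1 (chr2:188974443-188974546, plus strand), which codes for type III collagen. It read 9.36 and 9.06 in the control libraries and 9.14 and 9.48 after TGFβ1, so the 4 values lay within 0.42 of each other and the conditions overlapped. The 5′ site of COL1A2 (chr7:94394917-94395089, plus strand) read 7.27 and 8.13 in control and 7.70 and 8.05 after TGFβ1. The 5′ site of COL1A1 (chr17:50201452-50201626, minus strand) read 7.91 and 7.70 in control and 7.59 and 7.79 after TGFβ1. The conditions overlapped at both type I collagen sites as well. COL5A1, which codes for a chain of type V collagen, had a site 447 nt from its 5′ end that read 6.51 and 7.0 in control and 6.54 and 7.25 after TGFβ1. A second COL5A1 site of 28 nt, with its midpoint 49122 nt into the gene, read nearly the same, 6.49 and 7.15 against 6.63 and 7.44.

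CCNI, which codes for the cyclin-like protein cyclin I, held the second highest site. It lay 293 nt from the 5′ end (chr4:77075631-77075762, minus strand) and read 8.73 and 8.96 in control and 8.77 and 9.16 after TGFβ1, a range of 0.42. NEU1, the lysosomal sialidase, had a site 654 nt into the gene that read 8.23 and 7.78 in control and 7.73 and 7.97 after TGFβ1. A further NEU1 site at 177 nt read 8.02 and 7.23 against 7.32 and 7.75. CAMK2N1, an inhibitor of the kinase CaMKII, read 7.05 and 7.54 against 7.51 and 7.46. These sites were as even over the libraries as the collagen 5′ sites, and the conditions overlapped at each of them. With only clusters that overlapped the site by at least 10 nt, TGFβ1 minus control changed from 0.12 to -0.38 at CCNI, from -0.15 to 0.11 at the first NEU1 site and from -0.12 to -0.70 at the COL1A1 5′ site.

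Other high sites were less even. RBFOX2, a splicing regulator, had a site 627 nt from its 3′ end (chr22:35739313-35739413, minus strand) that read 8.44 and 7.69 in control and 8.80 and 10.17 after TGFβ1. IST1, a component of the endosomal ESCRT machinery, read 7.85 and 8.01 against 8.25 and 9.87, and RDX, which codes for the actin-membrane linker radixin, read 7.15 and 7.77 against 7.84 and 9.25. In these 3 genes both treated values lay above both control values, and the second TGFβ1 library stood more than 1 log2 unit above the first. LRP1, an endocytic receptor of the LDL receptor family, went the other way in its mean, with 9.12 and 8.04 in control and 6.69 and 8.71 after TGFβ1, and its conditions overlapped. MRC2, a receptor that takes up collagen, read 7.26 and 6.32 against 7.64 and 7.77. PCSK1N, an inhibitor of the proprotein convertase PCSK1, read 6.55 and 6.26 against 7.17 and 8.60. MRC2 and PCSK1N were higher in both treated libraries.

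**Figure D1:**
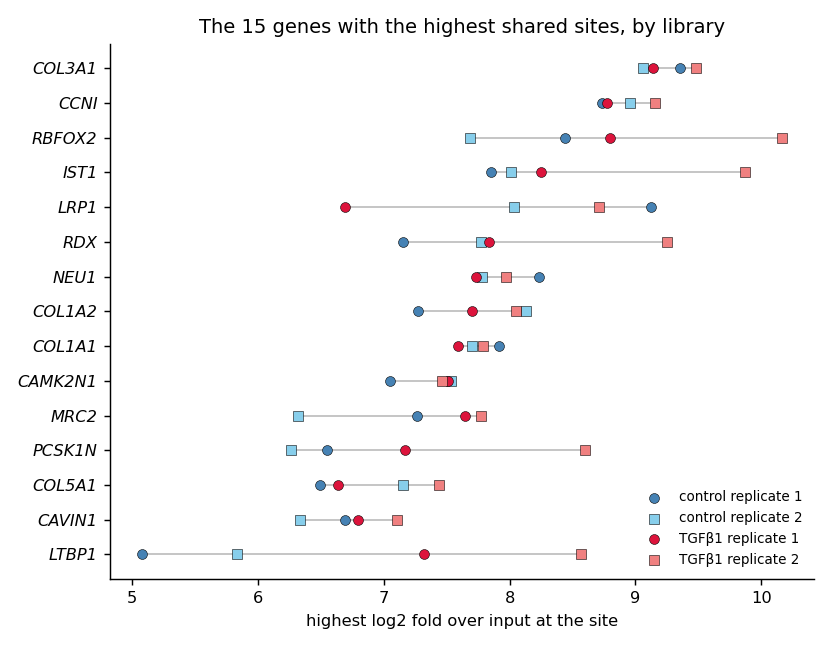
The 15 genes with the highest shared sites are listed by mean, 1 site per gene, with the log2 fold over input in each library on the x axis and a line for the range over the 4 libraries. The points of COL3A1 and CCNI lie within 0.42 of each other, whereas those of LTBP1 spread over 3.49.

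LARP6 enriched its own mRNA in both conditions. The site covered the start of the gene (chr15:70854052-70854158, minus strand), as its sequence above shows, and read 6.08 and 5.77 in control and 6.21 and 6.36 after TGFβ1. Both treated values lay above both control values, by 0.36 in the mean (SD 0.22 in control and 0.10 after TGFβ1, n = 2 each). That is no more than the median difference of 0.40 over the 7563 merged clusters tested in all 4 libraries. Of the 4 La-related protein genes with clusters in all libraries, LARP6 was the only gene with a shared site.

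The members were sorted by the textbook role of their genes. Other tested genes were not sorted, so these counts cannot be set against the share of each role among them. Of the 180 protein-coding genes, 24 were placed with cell surface proteins, adhesion, receptors and channels, 20 with extracellular matrix and secreted proteins and 20 with transcription and chromatin. Cytoskeleton, the secretory pathway (ER and Golgi), and kinases, GTPases and other signalling had 16 genes each. Metabolism had 13, RNA binding and translation 12, and endosome, lysosome and autophagy 10. Matrix and secreted proteins had more sites per gene than the others, 55 sites in 20 genes, of which 31 sites were in 4 fibrillar collagen genes. Sites of matrix-processing enzymes were low: 4 genes (LOXL2, MMP2, PLOD3 and MMP14) had 5 sites, with means of 3.14 to 4.33. Of the 5 sites, 1 was enriched in all libraries. LOXL2 and PLOD3 modify collagen lysines, and MMP2 and MMP14 are matrix-degrading proteases.

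Gene lists drawn up for these cells gave the share of each pathway with a shared site. Over all genes with clusters in the 4 libraries, 4.30% had one, 197 of 4585. Fibrillar collagens had a shared site in 4 of 5 such genes and stellate cell markers in 5 of 14 (COL1A1, COL1A2, COL3A1, TAGLN and THY1, the first 3 of which are also fibrillar collagens). The LDL receptor family and endocytosis had 3 of 14 (LRP1, MRC2 and the clathrin light chain CLTA). The list of small inhibitors and secreted regulators had 5 of 22: CCNI, CAMK2N1, PCSK1N, IGFBP4 and CCDC80. The name of that list does not describe CCNI, which codes for a cyclin-like protein. Integrins, caveolae and adhesion had 5 of 24, among them CAVIN1, which coats caveolae. Among matrix lists, other collagens had 3 of 11 (27.3%) and matrix glycoproteins and proteoglycans 4 of 38 (10.5%). Collagen processing and secretion had 2 of 25 (8%), and matrix proteases and inhibitors 2 of 15 (13.3%). At the other end, translation initiation and elongation factors had 0 of 29, RNA-binding and splicing proteins 2 of 45 (RBFOX2 and CELF1), oxidative phosphorylation 2 of 32 and cytosolic ribosomal proteins 4 of 64, all near or below the share over all genes. Genes with a shared site also had more clusters of any height, with a median of 8 per library against 4 in the 4388 other genes. The part of transcript abundance and length in these shares was not tested, and several lists were drawn up knowing which genes had high sites.

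Ribosomal protein mRNAs with a shared site were mostly low. RPS19 had a site of 9 nt that read 3.09 and 3.37 in control and 3.43 and 3.29 after TGFβ1. Its other site read 3.60 and 4.31 against 3.53 and 3.16, so both treated values lay below both control values. RPL4 read 3.35 and 3.26 against 3.43 and 2.85. RPLP1 was higher, with 4.22 and 3.76 in control and 6.20 and 6.48 after TGFβ1, a difference of 2.35 that exceeded the spread of either pair. Sterol and fatty acid genes were mixed: SC5D, a sterol desaturase of cholesterol synthesis, read 3.49 and 3.07 against 4.90 and 5.50, whereas FASN, the fatty acid synthase, had 2 sites that were lower in the mean. The first read 6.51 and 7.13 against 5.37 and 6.72 and overlapped. The second read 6.48 and 7.12 against 5.05 and 6.12, a separate difference of -1.21, the lowest of the 247 sites in protein-coding genes. The SC5D site was separate and higher after TGFβ1, but its control values were weak, with a −log10 p of 2.92 and 3.69.

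The latent TGFβ-binding proteins hold TGFβ in the matrix in its inactive form, and LTBP1 and LTBP3 were the members of the TGFβ signalling list, 2 of 30 genes. LTBP1 read 5.08 and 5.83 in control and 7.32 and 8.57 after TGFβ1 at a site 2318 nt from its 3′ end, and 5.10 and 5.51 against 6.70 and 6.57 at a site further upstream. LTBP3 read 5.66 and 5.83 against 7.09 and 6.66. A second LTBP3 site, slightly nearer the 5′ end, had the opposite order, 5.38 and 5.77 against 4.92 and 4.61. A single mRNA thus held shared sites above and below its control values. FBN1, the fibrillin of microfibrils, had 3 sites, of which 2 were separate and higher after TGFβ1 (4.43 and 4.16 against 6.36 and 5.33 at the highest) and the third overlapped. The difference at that highest site was 1.55, and 0.65 when the cluster with the highest −log10 p was used in each library.

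The spread over the 4 libraries differed between kinds of RNA. Over all 279 sites the range of the 4 values had a median of 1.68 on the log2 scale, from 0.16 to 4.79; 70 sites stayed within 1 and 106 exceeded 2. The 31 sites of the fibrillar collagens COL1A1, COL1A2, COL3A1 and COL5A1 had a median range of 0.74, with 1.43 as the widest. The 216 sites of other mRNAs had a median range of 1.87. Of the 6 most even sites, 5 were in COL1A1, COL1A2 or COL3A1 and the sixth in RPS19. The most even was a COL1A2 site of 54 nt that read 4.12, 4.22, 4.07 and 4.09. Of the 20 most even sites, 11 were in fibrillar collagens.

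Collagen sites were among those with the strongest evidence over input. The lowest −log10 p of the 4 libraries had a median of 49.5 at fibrillar collagen sites and 6.48 at other mRNA sites. Among sites whose lowest −log10 p was at least 20, the 27 collagen sites had a median range of 0.74 and the 28 sites of other mRNAs 1.84. These groups were not matched: their lowest −log10 p had medians of 54.9 and 39.1, and their mean log2 fold 4.12 and 6.35. Read numbers are unknown, and their part in the spread was not tested. Among other mRNAs the median range was 1.89 in 74 sites with a lowest −log10 p under 5 and 1.85 in 114 sites from 5 to 20. Across all sites, Spearman's rho between the range and the lowest −log10 p was -0.29, given as a description since sites of a gene share a transcript and all share the libraries. The groups and the bounds of 5 and 20 used on −log10 p were set after the values were seen, the collagen sites come from 4 genes only, and no test was made between the groups.

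**Figure D2:**
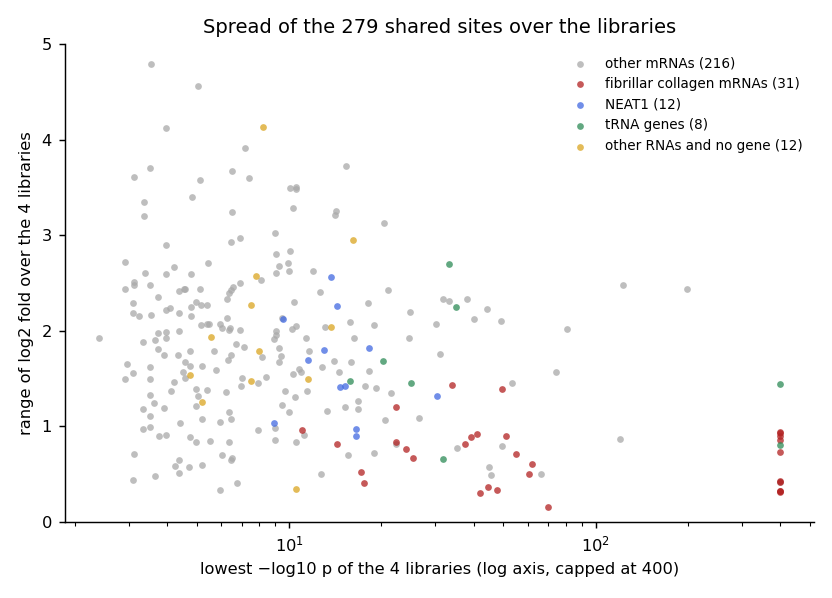
For each of the 279 sites the lowest −log10 p of the 4 libraries (log axis, capped at 400) is set against the range of its log2 fold over those libraries, coloured by kind of RNA. Fibrillar collagen sites reach no higher than 1.43, whereas some sites of other mRNAs range further.

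At the other extreme, the 6 least even sites were each highest in the second TGFβ1 library. RNH1, the cytosolic ribonuclease inhibitor, had the widest range, with 2.29 and 5.09 in control and 2.65 and 7.07 after TGFβ1, so its replicates differed by more than its conditions. TXNDC5, a disulfide isomerase of the ER, read 3.84 and 3.39 against 4.43 and 7.51, and YWHAE, a 14-3-3 adaptor, 3.98 and 5.44 against 5.27 and 7.70. Over all sites the second TGFβ1 library exceeded the first at 210 of 279, by a median of 0.68, and the second control library exceeded the first at 196, by a median of 0.44. Over the 7563 merged clusters that all 4 libraries tested, these medians were 0.20 and 0.30. The median SD of the 2 replicates at the shared sites was 0.44 in control and 0.60 after TGFβ1. Pearson's r between libraries across sites was 0.77 for the control pair, 0.76 for the TGFβ1 pair and 0.61 to 0.70 between conditions.

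Between conditions, the shared sites as a whole moved about as all clusters did. TGFβ1 minus control had a median of 0.52 over the 279 sites and 0.40 over the 7563 merged clusters. Both treated values lay above both control values at 95 sites (34.1%), against 32.3% of all merged clusters. Both lay below at 28 sites (10.0%), against 9.44% of merged clusters. The remaining 156 sites overlapped. Both shares are near the background and so are no result about the shared sites. The order also depended on which replicates were paired: TGFβ1 replicate 1 minus control replicate 2 had a median of -0.12, and TGFβ1 replicate 2 minus control replicate 1 had a median of 1.13. With 2 libraries against 2, an exact permutation test cannot go below p = 0.333, and no other test was run on single sites, so their differences are given as values.

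Within that background the kinds of RNA fell in different places. Fibrillar collagen sites had a median difference of 0.14, with 5 of 31 above, 1 below and 25 overlapping. Other mRNA sites had a median of 0.77, with 84 of 216 above and 10 below. NEAT1 sites had a median of -1.02 and tRNA gene sites one of -0.86. The median of all merged clusters was 0.33 higher in the TGFβ1 libraries than in the control libraries when each library's median was taken first. After each library was centred on that median, the counts were 1 above and 12 below for fibrillar collagens, 58 and 28 for other mRNAs, and 63 and 59 over all sites. The near-level collagen values are thus slightly below the general shift, and the excess of higher over lower sites in the whole set is within it. NEAT1 and tRNA genes kept their direction under that centring.

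**Figure D3:**
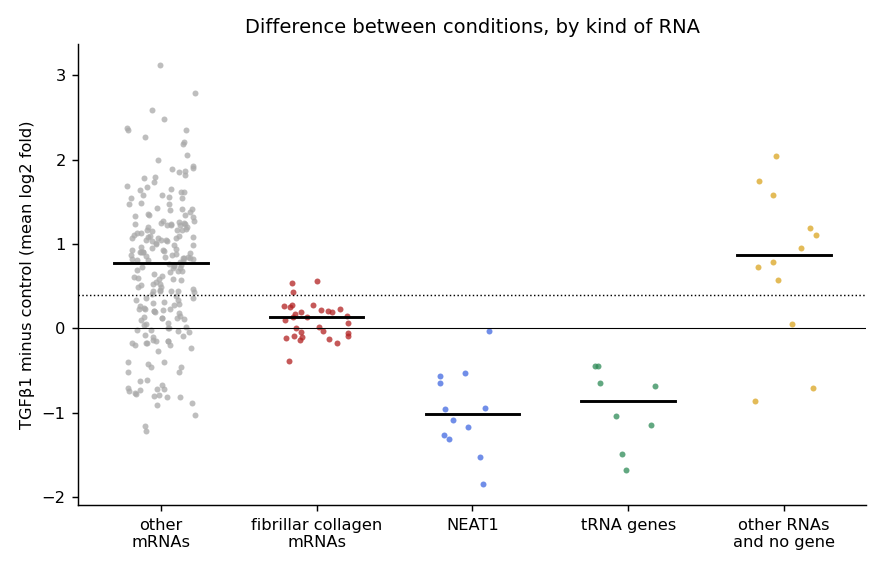
Each point is a shared site, with TGFβ1 minus control of the mean log2 fold on the y axis and the kind of RNA on the x axis; bars are medians and the dotted line is the median of all merged clusters (0.40). Fibrillar collagens sit near 0 (median 0.14), other mRNAs above (0.77), and NEAT1 (-1.02) and tRNA genes (-0.86) below.

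The 6 separate sites with the highest differences were in PPP1R15A, GLB1, RNF187, LTBP1 (2.49, described above), ATP6V0D1 and TXNDC5 (2.35). PPP1R15A, which codes for the GADD34 subunit that reverses translational arrest, read 2.48 and 4.82 in control and 6.50 and 7.04 after TGFβ1, a difference of 3.12. GLB1, the lysosomal beta-galactosidase, read 3.55 and 3.07 against 5.53 and 6.68, and RNF187, a ubiquitin ligase, 3.38 and 3.11 against 6.39 and 5.28. ATP6V0D1, a subunit of the lysosomal proton pump, read 4.82 and 3.38 against 5.66 and 7.29. In GLB1 and RNF187 the gap between the conditions was wider than the gap within either pair. In PPP1R15A and ATP6V0D1 the gap within the control or treated pair exceeded it. The control values of GLB1 had a −log10 p of only 3.12 and 3.69, near the cut of 3, and those of TXNDC5 had 3.96 and 5.00. The closeness of such weak control pairs is thus uncertain. PPP1R15A had a further shared site 382 nt from its 3′ end, where the 4 values were 3.47 and 3.69 against 4.32 and 3.72 and the difference was 0.44.

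**Figure D4:**
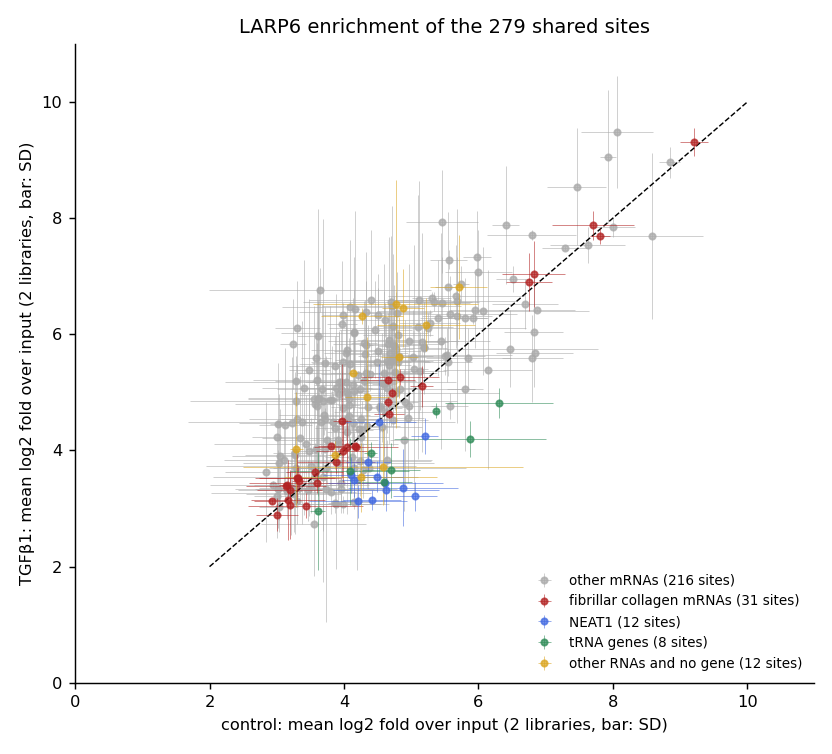
Each point is 1 of the 279 shared sites, with the control mean on the x axis, the TGFβ1 mean on the y axis, bars for the SD of the 2 replicates and a dashed line where they are equal. Fibrillar collagen sites lie along the line, and NEAT1 and tRNA gene sites lie below it.

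Non-coding RNAs made up a small share of the members and held most of the sites where both treated values lay below both control values. Protein-coding genes had 247 of the 279 sites (88.5%). NEAT1, the nuclear lncRNA that builds paraspeckles, had 12 sites, all at moderate height (means of 3.67 to 4.73). At 11 of the 12 both treated values lay below both control values. The site with the lowest difference (chr11:65427042-65427109, plus strand) read 4.83 and 5.29 in control and 3.39 and 3.03 after TGFβ1. The single overlapping NEAT1 site, the one furthest toward the 3′ end, read 4.92 and 4.14 against 5.2 and 3.78. The sites lay in 2 stretches, 3937 to 4775 nt and 11384 to 13504 nt from the 5′ end. All 12 lie on a single transcript and are not independent of each other.

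The 8 tRNA sites lay in 8 genes: 5 for arginine, and 1 each for cysteine, lysine and selenocysteine tRNA. Both treated values lay below both control values at 6 of them, and at 0 of the 8 did they lie above. TRC-GCA3-1, a cysteine tRNA gene, read 6.67 and 5.07 in control and 4.41 and 3.97 after TGFβ1, and TRR-TCG1-1, an arginine tRNA gene, 5.74 and 6.88 against 5.00 and 4.63. The narrowest gap among the 6 was at the selenocysteine gene TRU-TCA1-1, with 4.32 and 4.47 against 4.09 and 3.81. tRNA genes come in near-identical copies, so the copy to which these reads belong is uncertain. The 28 sites where both treated values lay below both control values included 11 in NEAT1, 6 in tRNA genes and 11 in protein-coding genes.

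The other non-coding members were higher or overlapping. RN7SL2, an RNA of the signal recognition particle, read 3.90 and 5.64 in control and 5.01 and 8.03 after TGFβ1, with overlapping conditions. A total of 3 sites lay on ribosomal RNA genes, which are repeated in the genome, so their copy is uncertain; their differences were 0.73 to 0.95. The pseudogene PTCHD3P1 read 3.84 and 4.70 against 6.41 and 6.22 and shares its position with another annotated gene. A further 4 sites lay outside annotated genes, with differences from -0.86 to 1.58.

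Most genes had a single shared site: 159 of the 197, with 29 genes at 2 sites, 4 genes (FBN1, GNA12, GPC1 and RNPEPL1) at 3 and 5 genes above 3. COL1A2 had 14 sites, NEAT1 12, COL3A1 8, COL1A1 7 and LRP1 5, which together are 46 sites. In the 3 collagen genes the 5′ site stood alone in height. The other 7 COL3A1 sites, the other 13 COL1A2 sites and the other 6 COL1A1 sites had means of 2.95 to 5.13, several log2 units below the sites at the gene starts. In LRP1 the site at 9.12 and 8.04 in control stood beside a second at 7.18 and 4.95, and the other 3 had means of 3.03 to 3.48. Along COL1A2 the sites ran from 108 to 16008 nt from the 5′ end and stopped at least 20324 nt short of the 3′ end.

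Some collagen sites had the width of collagen exons. Many exons that code for the triple helix of fibrillar collagens are 54 nt long. Of the 279 sites 5 were exactly 54 nt wide, 4 in COL1A2 and 1 in COL1A1, with 0 in other genes. The width was looked at after the values were seen, and exon bounds were not used here, so whether these sites end where exons end was not tested.

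**Figure D5:**
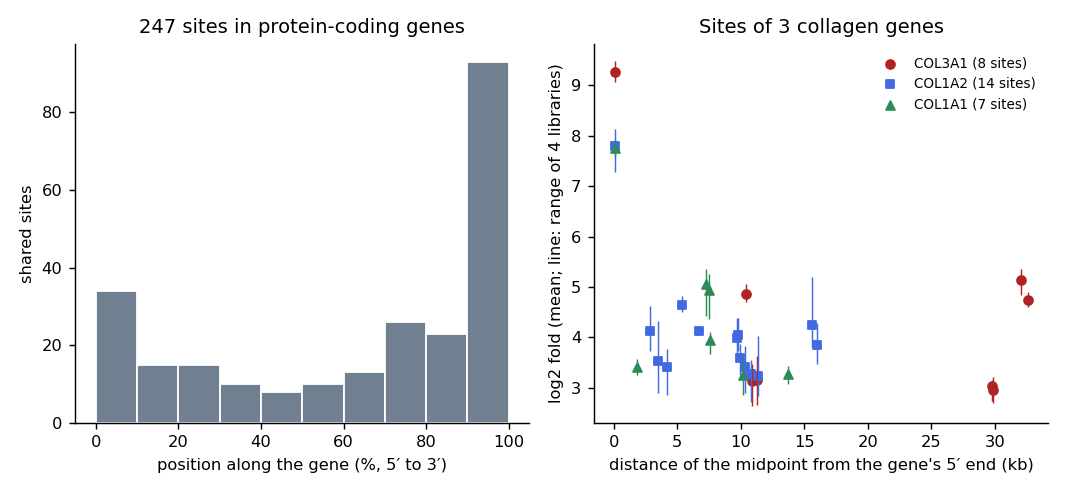
The left panel counts the 247 sites of protein-coding genes by position along the gene in steps of 10%, and 93 of them lie in the last 10% and 34 in the first 10%. The right panel sets the mean log2 fold of the COL3A1, COL1A2 and COL1A1 sites, with the range of the 4 libraries, against the distance from the 5′ end in kb, where the site nearest the start is the highest in each gene.

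By relative position, shared sites in protein-coding genes lay mostly toward the 3′ end. That position was not measured over all clusters, so whether it is particular to shared sites was not tested. The midpoint had a median position of 77.6% along the gene, introns included, with 93 of 247 sites (37.7%) in the last 10% of the gene and 34 (13.8%) in the first 10%. By fixed distance, 19 coding sites lay within 200 nt of the annotated 5′ end and 9 within 200 nt of the 3′ end. Within 500 nt of the annotated 5′ end lay 27 coding sites, 1 per gene, and within 500 nt of the 3′ end 26. Sites near the 5′ end were wider than the rest, with a median width of 111 nt against 89 nt near the 3′ end and 72.5 nt elsewhere. Their replicates were also closer, with a median SD of 0.30 in control and 0.38 after TGFβ1, against 0.42 and 0.96 at the 3′ end. Both treated values lay above both control values at 12 of the 27 sites near the 5′ end and 11 of the 26 near the 3′ end. The same held at 66 of the 194 coding sites elsewhere and at 32.3% of all merged clusters. No test was made between these counts.

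The sites near the 5′ end spanned many roles. Beside the collagens, CCNI, NEU1, PCSK1N and LARP6, they included SORT1, a sorting receptor, with 4.86 and 4.77 in control and 5.63 and 5.61 after TGFβ1, where the conditions were separate and both pairs tight. GFPT1, the first enzyme of the hexosamine pathway, read 4.20 and 4.12 against 5.24 and 7.62, also separate but with a wide treated pair. G0S2, an inhibitor of the lipase ATGL, read 5.10 and 4.35 against 4.20 and 4.85, and TAP1, a subunit of the peptide transporter for antigen presentation, 4.55 and 3.72 against 4.06 and 6.18. Those last 2 overlapped. Near the 3′ end the highest was CTTN, the actin regulator cortactin, with 5.68 and 5.41 against 5.91 and 7.73. MSMO1, a methyl sterol oxidase of cholesterol synthesis, read 5.2 and 5.58 against 5.57 and 6.99, and S100A11, a calcium-binding protein, 4.08 and 5.24 against 5.44 and 6.22. CTTN and S100A11 were separate and MSMO1 overlapped narrowly. PRMT5, an arginine methyltransferase, had 4.41 and 5.07 against 5.08 and 6.54.

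Position and gene class, which the rule did not use, were compared with the 196 genes that had sites in the TGFβ1 list alone. For each gene only 1 site was taken, the one with the highest log2 fold in the list. That site lay within 500 nt of the 3′ end in 38 of 197 genes with a shared site (19.3%, Wilson interval 14.4 to 25.4%). Among the others it did in 21 of 196 (10.7%, 7.12 to 15.8%). The odds ratio was 1.99 (two-sided Fisher's exact test, adjusted p = 0.0444 over 3 comparisons). Protein-coding genes made up 180 of 197 against 190 of 196, an odds ratio of 0.334 (Fisher's exact test, adjusted p = 0.0444). The site taken lay within 500 nt of the 5′ end in 35 of 197 (17.8%) against 25 of 196 (12.8%). That odds ratio was 1.48 (Fisher's exact test, adjusted p = 0.207), which did not pass. The first 2 calls were weak. tRNA and other short genes lie within 500 nt of both of their ends, and with protein-coding genes only the 3′ odds ratio was 1.57 (Fisher's exact test, adjusted p = 0.378, values under other settings in the closing section). Without control replicate 1 the odds ratios became 1.23 for the 3′ end, 0.544 for protein-coding genes and 0.762 for the 5′ end, all with a Fisher's exact adjusted p of 0.549.

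Member regions often overlapped the control list only in part, whereas the median shared site was mostly covered by it. The lists as a whole overlapped less, since 276 of the 555 sites of the TGFβ1 list were in that list alone. The overlap of a member with the control list had a median of 22 nt, and it was under 10 nt for 156 of the 615 regions. A total of 269 regions lay wholly inside a control region and 31 had the same bounds in both lists. Of the nucleotides of a site, a median of 94.1% were also in a region of the control list. Some sites were covered less, such as 3 of the 9 nt of an RPS19 site. Site widths had a median of 76 nt (1 to 294 nt), and 110 sites were made of 1 region, 80 of 2 and 89 of 3 or more. The longest sites were in AVEN (294 nt), GNB1 (233 nt), FGFRL1 (196 nt), SHISA5 (193 nt) and CAVIN1 (188 nt).

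At the edge of the rule, 3 regions overlapped the control list by 1 nt: 2 in CAVIN1, with log2 folds of 3.29 and 3.46 in the TGFβ1 list, and 1 outside genes with 3.82. Just outside it, regions in THY1 (3.79), LRP1 (3.87) and LTBP1 (4.94) touched a control region end to end without sharing a base, and in all 3 genes another region was a member. At the level of genes, 196 of the 393 genes of the TGFβ1 list were also among the 228 genes of the control list. Each of the 196 had a shared site. Genes with a shared site made up 50.1% of the TGFβ1-list genes and 86.0% of the control-list genes. The 197th gene, ZFHX3, was in the TGFβ1 list only by the position of the site's midpoint.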

How the data were processed

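LARP6 eCLIP was measured in 8 samples. The authors deposited, for each of 4 immunoprecipitated libraries and each condition, a list of clusters with a log2 fold over size-matched input and a −log10 p capped at 400; columns have no header, so these units were read from their ranges. Per the submitters' processing notes, cutadapt, STAR and UMI-tools were used with GRCh38; the peak caller, input normalisation and rule joining replicates are not given in the sources used here, and depth is unknown. Inputs enter only through the fold.

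Regions were compared by strand, joined within 20 nt and assigned by midpoint to RefSeq genes of GRCh38.p14, whose strand came from RefSeq sequences or, failing that, from at least 80% of 3 or more clusters. Where genes shared a position, small RNA genes were preferred, then protein-coding genes, then other classes. Fisher's exact test (SciPy 1.17.1, Benjamini-Hochberg over 3 comparisons) was applied to position and gene class, 1 site per gene, and repeated under the alternatives of the closing section. The overlap code was tested on simulated data and found 1500 of 1500 planted overlaps. Genes were named by rank (highest means, most sites, widest and narrowest ranges, extreme differences, up to 4 per list, longest, non-coding, edges); sites and genes near gene ends, NEAT1 and collagen examples beyond these were chosen after their values were seen. Members and lists were chosen with earlier results of these data known, and roles were assigned to the genes found. Intervals cover counting error only.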

Additional observations from a re-analysis of the deposited data

How the results depend on the processing

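The shared regions numbered 365 at a log2 fold of at least 4 in both lists, with 165 sites, and were 55.0% of the list there. They were 57% when 50% of a region had to overlap, 45.5% at an overlap of at least 10 nt and 79.6% when regions of the control list were the members. Leaving out 1 library at a time gave 34.2 to 72.3% (72.3% without control replicate 1, 34.2% without TGFβ1 replicate 1). Sites with TGFβ1 above control were 145 with the replicate block and 63 with libraries centred on all clusters. Sites below were 10 at the fold of 4, 59 with centring and 17 without NEAT1. Replicate numbers did not pair the libraries: the deviations of the first replicates from their means had a correlation of 0.04 across 279 sites. The block changed no other count by over 1.5 times.

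The 5′ odds ratio was 2.72 (adjusted p = 0.0115, Fisher's exact test) at the fold of 4 and 2.17 (adjusted p = 0.0436) at a −log10 p of at least 5, which both passed. It was 0.942 with control-list members and 0.762 to 1.79 when 1 library was left out, the lowest without control replicate 1. The 3′ odds ratio no longer passed in any of the following: 1.89 at 10 nt, 1.80 at the fold of 4, 1.56 at the −log10 p of 5, 2.01 and 1.19 with windows of 200 and 1000 nt, 1.68 over all sites, 2.00 without a preference of gene class or without NEAT1, and 1.57 in protein-coding genes only. It was 0.722 with control-list members. Leaving out 1 library gave 1.23 to 2.18, and the call ended without control replicate 1, control replicate 2 or TGFβ1 replicate 2. The protein-coding odds ratio no longer passed at 10 nt (0.479), without a preference of class (0.424) or without NEAT1 (0.355), and was 1.95 with control-list members. Leaving out 1 library gave 0.290 to 0.544, and the call ended without control replicate 1. The cause of these changes was not tested. Of the single named sites, 136 values stayed within their replicate SD and the others moved further. The sign changed at 5 sites: when clusters had to overlap by at least 10 nt, CAVIN1 went from 0.44 to -0.23, CCNI to -0.38, NEU1 to 0.11 and COL6A2 from 0.34 to -0.05; with the cluster of the highest −log10 p, NEU1 and COL6A2 took the same values and ATP5F1D went from 0.20 to -0.22. Protein-coding-only, centred and NEAT1-free values were chosen after seeing the data. The 2 libraries per condition and unknown depth limit all differences.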
